A study of Mus musculus with 24 samples.

Results

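The transcripts described here are those of 10 ETS transcription factors other than PU.1 and SpiB: Ets1, Ets2, Fli1, Elf1, Elf2, Elf4, Etv6, Elk3, Gabpa and Spic. They were picked by name, as the rows of the deposited count tables that carry these symbols, and make up 10 of the 27179 genes in the tables. The question was whether RNA for the rest of the family moved when mouse B cells lost PU.1, SpiB or both factors, and whether it did so in the same way before and after activation. RNA-seq was done on 24 libraries of lymph node B cells from C57BL/6 mice of 6 to 20 weeks, 2 per group, either straight from the animal (naive) or after 48 h with IL-4 and either CD40L or LPS. Control mice were Cd23T/+, which means that they carried only the Cre transgene, a BAC whose Cd23 regulatory sequences turn Cre on as B cells mature. PU.1 cKO mice added floxed Spi1 alleles (Spi1 fl/fl Cd23T/+). SpiB KO mice were Spib-/- with floxed Spi1 but no Cre (Cd23+/+), so this group alone lacked the transgene. PU.1 SpiB DKO mice (DKO for short) combined Spi1 fl/fl, Cd23T/+ and Spib-/-. Stage and sequencing experiment cannot be told apart, since no source used here says which libraries were sequenced together.

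ETS factors share a winged helix-turn-helix domain that contacts DNA at a GGAA core, and neighbouring bases and partner proteins set which member a site prefers. PU.1, SpiB and SpiC form a subfamily that favours purine-rich stretches before the core, while Ets1, Fli1, the Elf proteins and GABPα recognise closely related sites. Etv6 is mainly a repressor, and Ets1 in B cells is best known for holding back their turn into plasma cells.

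Total counts per library ran from 14231188 to 18194629 in naive cells, 9598674 to 61640683 after CD40L + IL-4 and 22757630 to 73658850 after LPS + IL-4. Leaving Spic aside, no member had fewer than 82 counts in any library. Levels are CPM, the counts of a gene relative to the library total, scaled by TMM over the 8 libraries of a stage unless stated otherwise. A gene was called differentially expressed (DE) at an adjusted p under 0.15 from edgeR's quasi-likelihood test, a fold over 1.5 and a mean log2 RPKM above 0. Each mutant was set against the same control libraries of its stage. The study's methods describe the 2 libraries of a group as biological replicates. Each edgeR p-value rests on the spread within such pairs, pooled over the groups of a fit and moderated across genes.

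The targeted genes were lower where the labels say so, with LPS + IL-4 DKO as an exception for Spi1 and naive DKO as a partial one. Spib, whose product is SpiB, stood at 9.05 to 100.4 CPM in the Spib-/- libraries of the 3 stages against 211 to 1472 CPM in control. Spi1, which encodes PU.1, read 155 and 174 CPM in naive control, 59.5 and 53.3 in PU.1 cKO and 103 and 110 in DKO. Naive DKO thus lay below control (−0.63 ± 0.11) and above PU.1 cKO (0.92 ± 0.11, edgeR adjusted p = 0.000571), and the study describes the floxed exon as retained in part in these naive cells. The results for naive DKO are those of a partial loss of PU.1. After CD40L + IL-4 it fell in PU.1 cKO by 1.24 and in DKO by 1.73 on the log2 scale. After LPS + IL-4, however, the libraries labelled DKO held 63.9 and 58.9 CPM of Spi1, within reach of the control values of 72.0 and 60.7 (log2 fold change −0.11, edgeR adjusted p = 0.448). PU.1 cKO libraries of the same culture held 44.2 and 41.2 CPM, lower than control by 0.63 and DE. Those labelled DKO lay above PU.1 cKO by 0.52, which passed the adjusted p but not the fold threshold. The count covers the whole gene, of which the floxed allele loses 1 exon, so it does not measure the deletion itself. The study, which looked at reads over that exon, describes it as efficiently deleted in these cultures, as the label says. LPS + IL-4 results for that group are given by its label.

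The study sorted the cells for RNA-seq as CD3-, B220+ and CD138-, a gate that would remove T cells and plasma cells. No B cell marker (8 listed) was at 0 in any library. Their summed CPM was 11233 and 11612 in naive control and 9337 and 8675 in naive DKO, 5858 and 7458 in CD40L + IL-4 control and 4924 and 3861 in DKO, and 3982 and 3431 in LPS + IL-4 control and 4062 and 4037 in the libraries labelled DKO. In naive cells markers of other cell types moved with Spib loss. The 8 T cell markers summed to 62.7 to 104 CPM in control and PU.1 cKO, 302 to 361 in SpiB KO and 460 to 477 in DKO. For plasmacytoid dendritic cells (8 markers) the range was 200 to 317 CPM in control and 1112 to 1590 in the Spib-/- groups. Macrophage markers (11 found of 12) gave 8.46 to 15.8 CPM against 45.7 to 62.1. That macrophage sum was mostly Cd68, at 5.76 to 55.4 CPM over the naive libraries. Lyz2 reached 5.95 CPM and each other macrophage marker 1.37 at most. The naive T cell sum was mostly Cd4 (6.76 to 96.9 CPM), Cd8a (2.35 to 266) and Lck (51.6 to 125). Cd3d, Cd3e and Cd3g, which define T cells, were nevertheless at 1.23 CPM or less in every naive library and at 0.667 or less in the cultures, where each was at 0 in some libraries. Plasma cell markers (7 found of 8) summed to 1191 to 1301 CPM in LPS + IL-4 control and 2915 to 2962 in the libraries labelled DKO. PU.1 cKO gave 2044 and 2278 there, and SpiB KO 1292 and 1395. Most of the sum over that stage was Xbp1 (364 to 1085 CPM) and Mzb1 (452 to 941). Next came Irf4 (263 to 502) and Ell2 (64.9 to 439), and Prdm1 was at 18.6 to 64.4. Sdc1, which encodes CD138, was at 5.33 to 8.56 CPM, and at 2.56 to 19.5 with CD40L + IL-4. With CD40L + IL-4 the sums were 1732 and 2037 in control and 4232 and 4371 in DKO. PU.1 cKO gave 3101 and 3417 in that culture, and SpiB KO 1769 and 2407. The part of such cells or genes in the results was not tested. Fewer cells of a type and less RNA per cell cannot be told apart in bulk RNA.

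In control cells the members differed widely in abundance per transcript length. On the deposited log2 RPKM scale, naive control B cells held Ets1 at 8.24 ± 0.21 (SD, n = 2), followed by Elf1 at 6.10 ± 0.02, Elf4 at 5.73 ± 0.04 and Fli1 at 4.92 ± 0.27. Fli1 and the next in order, Elf2 at 4.81 ± 0.20, did not differ beyond their spread. Gabpa stood at 4.40 ± 0.24 and Elk3 at 4.29 ± 0.04, again within the spread of each other. Ets2 (3.24 ± 0.15) and Etv6 (2.32 ± 0.17) were lower. Spic, known from red pulp macrophages, was at the edge of detection with −0.25 ± 0.18.

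In control cells 6 of 10 members passed between CD40L + IL-4 and naive cells, where 48.8% of 13684 genes tested did. Between LPS + IL-4 and naive cells 8 of 10 passed, against 63.9% of genes, and between the 2 cultures 5 of 10 passed, against 41.2%. These tests asked for an adjusted p under 0.15 and a fold over 1.5 in 1 fit of all 24 libraries, and the CPM given for control stages are scaled over all 24. The counts thus lie near the background of a large general shift in each comparison.

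Ets1 fell in steps, from 1722 ± 71.6 CPM in naive control to 852 ± 29.4 with CD40L + IL-4 and 220.3 ± 37.9 with LPS + IL-4 (SD, n = 2). The log2 fold change was −1.01 ± 0.15 (SE) for CD40L + IL-4 and −2.97 ± 0.16 for LPS + IL-4, with edgeR adjusted p = 1.19e-05 and 7.20e-12. Elf4 followed the same order, at 322 ± 21.6, 163 ± 26.6 and 87.0 ± 0.282 CPM. Ets2 and Elk3 fell in each culture to about the same level. Ets2 went from 33.1 ± 4.33 CPM to 8.69 ± 0.406 and 11.1 ± 1.55, and Elk3 from 83.0 ± 2.42 to 34.7 ± 1.71 and 34.0 ± 4.47. Etv6, Gabpa and Fli1 moved the other way. Etv6 rose from 27.3 ± 3.74 CPM to 54.6 ± 4.73 and 80.8 ± 3.63, with log2 fold changes of 0.999 ± 0.13 and 1.56 ± 0.13 against naive. Gabpa rose only with LPS + IL-4, from 108 ± 19.8 to 182 ± 11.3 CPM, and without naive control replicate 2 this change of 0.76 came to 0.58, under the fold threshold. Fli1 rose with CD40L + IL-4, from 94.4 ± 17.6 to 194 ± 29.3 CPM, and stood lower again with LPS + IL-4 at 123 ± 1.24 CPM. The difference in Fli1 between the cultures, −0.66, was −0.50 without CD40L + IL-4 control replicate 1 and then no longer passed. Elf1 fell between naive and LPS + IL-4 cells by 0.70 ± 0.14. Elf2 passed in no pair of stages, and its control levels lay between 58.7 and 75.3 CPM.

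**Figure D1:**
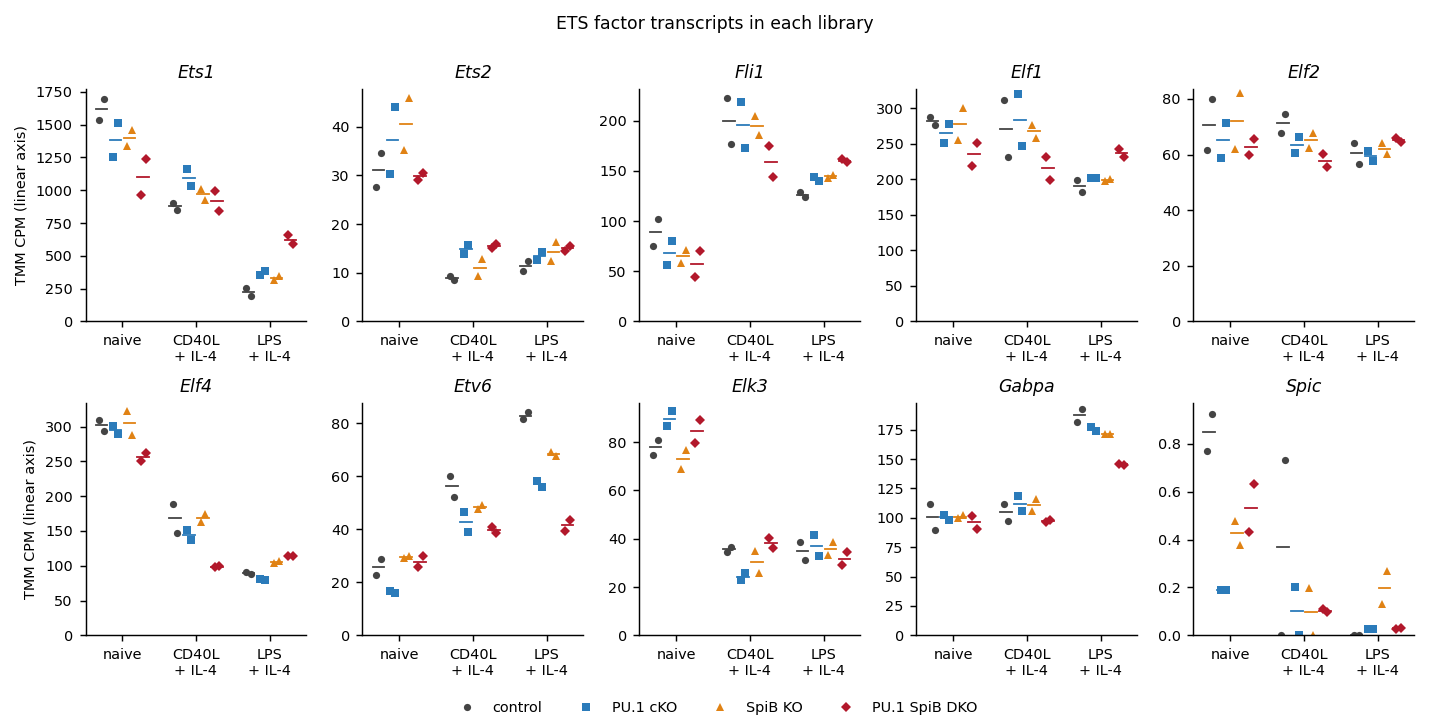
CPM (TMM, scaled within each stage, linear axes from 0) of the 10 ETS transcripts in the 24 libraries, by stage on the horizontal axis; each point is 1 library, each short line the mean of 2, and colours and shapes give the genotype. Ets1 ran from 1537 and 1695 CPM in naive control to 258 and 196 in LPS + IL-4 control, and the libraries labelled DKO in LPS + IL-4 stood at 659 and 587.

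Loss of PU.1, SpiB or both moved few of these transcripts past the DE thresholds. In naive cells 1 of 10 members was DE in PU.1 cKO (Etv6, lower), 0 in SpiB KO and 1 in DKO (Fli1, lower), against 8.4%, 6.35% and 14.1% of 12500 genes tested. After CD40L + IL-4, 9 members were tested, and 1 was DE in PU.1 cKO (Ets2, higher), 0 in SpiB KO and 2 in DKO (Ets2, higher, and Elf4, lower), against 9.36%, 0.11% and 13.7% of 12721 genes. After LPS + IL-4, 1 of 9 was DE in PU.1 cKO (Ets1, higher), 0 in SpiB KO and 2 in the libraries labelled DKO (Ets1, higher, and Etv6, lower), against 6.67%, 2.29% and 13.6% of 12445 genes. For SpiB KO, DESeq2 also called 0 members in each stage, and 0, 0 and 4 members had an unadjusted p under 0.05 in naive, CD40L + IL-4 and LPS + IL-4 cells. By voom the LPS + IL-4 count for SpiB KO was 1 (Ets1). With 9 or 10 members tested, these counts are not far from the background of their comparison.

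The adjusted p alone gave a wider picture in 1 place. In the LPS + IL-4 libraries labelled DKO, 7 of 9 members passed it, where 48% of all genes did. In PU.1 cKO 2 of 9 passed against 19%, and in SpiB KO 2 of 9 against 5.13%. In CD40L + IL-4 cells the counts were 2, 0 and 3 of 9 for PU.1 cKO, SpiB KO and DKO, against 16.6%, 0.134% and 25.2%. In naive cells they were 2, 0 and 3 of 10, against 17.2%, 12.6% and 34.8%. The median log2 fold change of the members in DKO was −0.21 (naive), −0.30 (CD40L + IL-4) and 0.31 (LPS + IL-4), and that of all genes tested lay between 0.00155 and 0.00756.

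**Figure D2:**
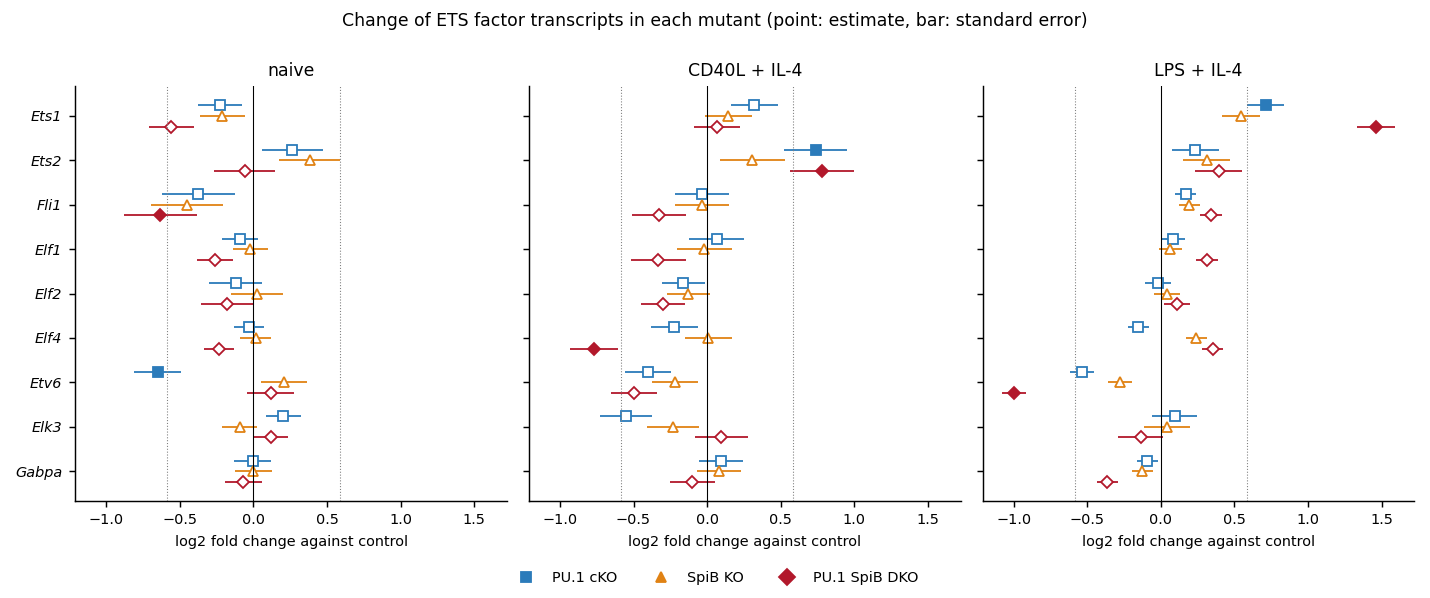
Log2 fold change against control (horizontal axis) of the 9 members tested in every stage, with the standard error as a bar; filled symbols are DE, dotted lines mark a fold of 1.5, and the 3 panels are the stages. Ets1 in LPS + IL-4 lay at 0.71, 0.54 and 1.46 in PU.1 cKO, SpiB KO and DKO, and Etv6 at −0.53, −0.28 and −0.995.

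Ets1 (Entrez 23871, chr9:32636241-32757820 in GRCm38.p6, the build of all coordinates here) gave the widest change of a tested member against control in the cultures. In LPS + IL-4 cultures it read 258 and 196 CPM in control, 358 and 385 for PU.1 cKO, then 315 and 345 for SpiB KO, and 659 and 587 for the libraries labelled DKO. No mutant library overlapped control, and the doubly mutant pair stood above all others. The gene rose by 0.71 ± 0.13 (SE) on the log2 scale in PU.1 cKO (edgeR adjusted p = 0.00604) and by 1.46 ± 0.13, or 2.75-fold, in the libraries labelled DKO (edgeR adjusted p = 5.06e-05). In SpiB KO it was 0.54 ± 0.13 higher (edgeR adjusted p = 0.0690), which is under the fold of 1.5. Without LPS + IL-4 control replicate 2 the PU.1 cKO difference was 0.53 and under the fold threshold, whereas without control replicate 1 the SpiB KO difference was 0.76 and passed. The libraries labelled DKO also exceeded PU.1 cKO by 0.75 ± 0.13 and SpiB KO by 0.92 ± 0.13 (edgeR adjusted p = 0.00560 and 0.00129). On the scale shared by all 24 libraries, Ets1 in that pair (606 and 547 CPM) was still below every naive library, the lowest of which held 1011. In the same cultures the T cell markers summed to 18.3 and 19.1 CPM in control and 60.9 and 64.2 in the doubly mutant pair. That sum was nearly all Lck (17.9 to 63.3 CPM over the stage), and the other 7 markers were each at 0.636 CPM or less in every LPS + IL-4 library.

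In naive cells Ets1 lay on the other side of control. It read 1537 and 1695 CPM in control, 1254 and 1509 for PU.1 cKO, then 1333 and 1460 for SpiB KO, and 960 and 1236 for DKO, so no mutant library reached control. The difference in DKO was −0.56 ± 0.15 (edgeR adjusted p = 0.030), just short of 1.5-fold, and passed at −0.64 without control replicate 1 and at −0.77 without DKO replicate 2. With CD40L + IL-4, Ets1 read 904 and 850 CPM in control, 1162 and 1030 for PU.1 cKO, then 1012 and 927 for SpiB KO, and 997 and 841 for DKO. Only the doubly mutant pair overlapped control, and the difference of 0.32 ± 0.16 in PU.1 cKO did not pass (edgeR adjusted p = 0.262).

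Etv6, a transcriptional repressor, moved against Ets1 in the same cultures. It lies at chr6:134035700-134270158 (Entrez 14011), where 5 other annotated genes, none of them protein-coding, overlap it. With LPS + IL-4 it stood at 81.5 and 84.4 CPM in control, 58.4 and 56.2 for PU.1 cKO, then 69.3 and 67.8 for SpiB KO, and 39.5 and 43.7 for the libraries labelled DKO. The 4 groups did not overlap at all. Etv6 fell by 0.995 ± 0.08 on the log2 scale in the libraries labelled DKO (edgeR adjusted p = 3.43e-05), and the differences from control of −0.53 (PU.1 cKO) and −0.28 (SpiB KO) were under the fold threshold (edgeR adjusted p = 0.00257 and 0.147). They were also lower than SpiB KO by 0.72 ± 0.08 and differed from PU.1 cKO by −0.46 ± 0.08, the latter under the fold threshold. After CD40L + IL-4 the group means lay in the same order with smaller differences. Control read 60.03 and 52.4 CPM and PU.1 cKO 46.4 and 39.0, while SpiB KO read 47.5 and 49.2 and DKO 41.0 and 38.8. PU.1 cKO and DKO overlapped there (DKO minus PU.1 cKO −0.09, edgeR adjusted p = 0.857). Etv6 was DE in no mutant there, the difference in DKO being −0.50 ± 0.16 (edgeR adjusted p = 0.0645) and −0.59, past the fold threshold, without control replicate 2.

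In naive cells Etv6 was low in PU.1 cKO alone. It read 16.8 and 15.98 CPM there, 22.7 and 28.7 in control, 29.2 and 30.0 in SpiB KO and 25.6 and 30.0 in DKO. The fall in PU.1 cKO was 0.65 ± 0.16 against control (edgeR adjusted p = 0.0434), and DKO exceeded PU.1 cKO by 0.77 ± 0.16 (edgeR adjusted p = 0.0128), a comparison in which Spi1 itself was 0.92 higher. The call against control was lost without control replicate 2 (−0.47, edgeR adjusted p = 0.176) and, through the adjusted p, without either PU.1 cKO library (−0.68 and −0.63). The call against DKO held with any naive library left out.

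Ets2, Elf4 and Etv6 were called in DKO of 1 culture each and had entries among the RefSeq promoters (GRCm38.p6). The 250 bases before their annotated starts follow on the strand of the gene, with each GGAA core or its reverse complement TTCC in capitals. The Ets2 window (chr16:95702157-95702406, plus strand) holds 1 core, a number that 93.4% of 32851 mouse windows of this length reach. The Etv6 window (chr6:134035450-134035699, plus strand) holds 3, which 54.7% reach. Elf4 has 2 annotated starts on the minus strand, one window (a, chrX:48463133-48463382) with 6 cores, which 8.69% reach, and the other (b, chrX:48454320-48454569) with 2, which 76.8% reach.
Ets2: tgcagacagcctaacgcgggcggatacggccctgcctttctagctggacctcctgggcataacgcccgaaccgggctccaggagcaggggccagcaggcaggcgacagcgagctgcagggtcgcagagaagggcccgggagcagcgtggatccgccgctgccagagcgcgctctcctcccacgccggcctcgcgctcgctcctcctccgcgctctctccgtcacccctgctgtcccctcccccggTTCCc
Etv6: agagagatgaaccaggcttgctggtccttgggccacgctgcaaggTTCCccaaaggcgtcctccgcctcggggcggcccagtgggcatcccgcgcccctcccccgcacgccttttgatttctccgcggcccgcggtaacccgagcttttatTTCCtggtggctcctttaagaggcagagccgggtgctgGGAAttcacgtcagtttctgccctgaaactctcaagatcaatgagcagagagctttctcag
Elf4 a: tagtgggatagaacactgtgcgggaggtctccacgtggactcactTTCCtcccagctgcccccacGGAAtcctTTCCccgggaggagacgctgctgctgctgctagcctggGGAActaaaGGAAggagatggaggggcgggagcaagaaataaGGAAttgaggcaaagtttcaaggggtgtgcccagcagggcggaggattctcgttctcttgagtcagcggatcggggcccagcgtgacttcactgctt
Elf4 b: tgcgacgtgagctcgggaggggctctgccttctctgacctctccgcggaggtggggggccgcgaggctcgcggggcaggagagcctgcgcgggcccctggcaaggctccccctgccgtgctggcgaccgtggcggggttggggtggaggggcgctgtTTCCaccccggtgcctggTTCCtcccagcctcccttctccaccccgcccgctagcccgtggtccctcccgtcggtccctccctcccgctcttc
Of the 10 members 8 had an entry, with 11 windows in all. Ets1 and Fli1 had none. Some GGAA core, on either strand, was in 10 of the 11 windows and in 93.4% of all windows. The longer word GAGGAAGT, a purine-rich form of the core, was in 1 of 11 member windows and 2.44% of all, and CCGGAAGT, which holds the same core, in 0 of 11 and 2.88% of all. The GAGGAAGT match lies in the Gabpa window, at chr16:84835000-84835029 on the plus strand, with the word in capitals, 105 bases before the start used for that window and inside the annotated span of the gene.
Gabpa: ccaaacaggagGAGGAAGTggagggtaagt
These matches describe the letters of the windows and were not tested for binding.

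Elf4, which is linked to quiescence in lymphocytes, lay on opposite sides of control in the 2 cultures. The gene is on the X chromosome (Entrez 56501, chrX:48411049-48463132). With CD40L + IL-4 it stood at 189 and 148 CPM in control, 151 and 137 for PU.1 cKO, then 164 and 175 for SpiB KO, and 98.5 and 99.1 for DKO. The doubly mutant libraries lay below all others. Elf4 fell by 0.77 ± 0.16 against control (edgeR adjusted p = 0.0106) and by 0.77 ± 0.16 against SpiB KO (edgeR adjusted p = 0.0123). The difference from control was −0.58 without control replicate 1, just under the fold threshold. In this comparison 4 of 8 B cell markers were DE, all lower, with a median of −0.56 over the 8. With LPS + IL-4 it read 90.9 and 87.9 CPM in control, 81.2 and 79.5 for PU.1 cKO, then 104 and 107 for SpiB KO, and 114 and 114 for the libraries labelled DKO. The doubly mutant pair was here the highest, by 0.35 ± 0.07 over control (edgeR adjusted p = 0.00559), under the fold threshold. In naive cells Elf4 was 0.23 ± 0.10 lower in DKO (edgeR adjusted p = 0.145), with 250 and 263 CPM against 310 and 293.

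Its relatives Elf1 and Elf2, which bind lymphoid gene promoters, were DE in no genotype. Elf1 was 0.31 ± 0.08 higher in the LPS + IL-4 libraries labelled DKO (242 and 231 CPM against 199 and 181 in control, edgeR adjusted p = 0.0124). In the other stages its differences in DKO were −0.26 ± 0.12 in naive and −0.33 ± 0.19 in CD40L + IL-4 cells (edgeR adjusted p = 0.159 and 0.277). Elf2 stayed between 55.6 and 82.2 CPM in all 24 libraries, and its 9 differences from control ran from −0.30 to 0.11, with no adjusted p under 0.15. Elf1 (Entrez 13709, chr14:79481174-79582491) overlaps Wbp4, Elf2 (Entrez 69257) lies at chr3:51252720-51340683, and Gabpa and Elk3 overlap Atp5j and Cdk17, so part of their reads could be shared where the genes meet.

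Ets2 (Entrez 23872, chr16:95702407-95721049), an ETS factor that answers to MAP kinase signals, was called against control with CD40L + IL-4. There it read 9.30 and 8.59 CPM in control, 13.9 and 15.8 for PU.1 cKO, then 9.37 and 12.7 for SpiB KO, and 15 and 15.8 for DKO. Both groups with floxed Spi1 and Cre lay above all control and SpiB KO libraries. Ets2 rose by 0.74 ± 0.21 in PU.1 cKO (edgeR adjusted p = 0.0586) and by 0.78 ± 0.22 in DKO (edgeR adjusted p = 0.0373). The PU.1 cKO call was lost without either control library (0.81 and 0.68) or without PU.1 cKO replicate 2 (0.65), whose total count of 61640683 was the largest of its stage. With LPS + IL-4 Ets2 was 0.39 ± 0.16 higher in the libraries labelled DKO (edgeR adjusted p = 0.0879), under the fold threshold, and its effects in the 2 cultures were not shown to differ (LPS + IL-4 against CD40L + IL-4, −0.47 ± 0.29 in DKO and −0.55 ± 0.29 in PU.1 cKO, edgeR adjusted p = 0.296 and 0.454).

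Fli1 (Entrez 14247, chr9:32422204-32543432) lies next to Ets1, 92.8 kb away, and its product has been tied to B cell development. In naive cells it read 75.4 and 102 CPM in control, 56.6 and 80.5 for PU.1 cKO, then 58.6 and 71.2 for SpiB KO, and 44.3 and 70.1 for DKO. Fli1 fell by 0.63 ± 0.25 in DKO (edgeR adjusted p = 0.102). No mutant library but PU.1 cKO replicate 2 reached the lower control value. The call rested on single libraries, since the difference was −0.34 without DKO replicate 1 and −0.40 without control replicate 2. With LPS + IL-4 the libraries labelled DKO held 162 and 159 CPM against 129 and 124 in control, a difference of 0.34 ± 0.07 (edgeR adjusted p = 0.00644) that was under the fold threshold.

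Elk3 (Entrez 13713, chr10:93247415-93311159), a repressor that joins SRF at serum response elements, was DE between mutants rather than from control. With CD40L + IL-4 it read 34.7 and 36.7 CPM in control, 22.9 and 25.7 for PU.1 cKO, then 34.8 and 26.0 for SpiB KO, and 40.3 and 36.0 for DKO. DKO exceeded PU.1 cKO by 0.65 ± 0.18 (edgeR adjusted p = 0.117), a call lost without any 1 of the 4 libraries compared (0.55 to 0.73, edgeR adjusted p from 0.279 to 0.544). Against control the difference in PU.1 cKO was −0.55 ± 0.18 (edgeR adjusted p = 0.0889), under the fold threshold.

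Gabpa (Entrez 14390, chr16:84834891-84863783), the DNA-binding subunit of GABP, was DE in no genotype. In LPS + IL-4 cultures it read 182 and 193 CPM in control, 177 and 174 for PU.1 cKO, then 172 and 172 for SpiB KO, and 146 and 145 for the libraries labelled DKO. That pair was 0.36 ± 0.07 lower than control (edgeR adjusted p = 0.00443), under the fold threshold. In naive and CD40L + IL-4 cells its differences from control lay between −0.10 and 0.09.

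Spic (Entrez 20728, chr10:88675269-88683023), the closest relative of PU.1 and SpiB, was nearly silent. Naive control held 11 and 13 counts, PU.1 cKO 3 and 3, SpiB KO 8 and 7 and DKO 7 and 12. The naive difference in PU.1 cKO was −2.11 ± 0.62 (edgeR adjusted p = 0.0735), but the mean log2 RPKM of the gene was below 0 and it was not called. With CD40L + IL-4 control held 0 and 7 counts, and no other library more than 2. With LPS + IL-4 control held 0 and 0, SpiB KO 8 and 6 and all other libraries 1 or 2, and the gene was too low to be tested within either culture. In the fit of all 24 libraries it passed between LPS + IL-4 control and each of the other control groups, the difference from CD40L + IL-4 resting on the 7 counts of its replicate 2. Set against a floor of 3 counts over both LPS + IL-4 control libraries, pooled Spic CPM was 21.6-fold higher in naive control. In LPS + IL-4 SpiB KO it was 4.45-fold higher. The floor allows for counting error in LPS + IL-4 control alone, and the counts set against it are taken as they stand. Variation between mice is not covered.

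Comparing the mutants with each other, 1 of 10 members was DE between naive DKO and PU.1 cKO (Etv6) and 0 between DKO and SpiB KO, against 7.21% and 1.97% of genes. DESeq2 also called 0 in the latter, and 2 members had an unadjusted p under 0.05. With CD40L + IL-4 the counts were 1 of 9 (Elk3) and 1 of 9 (Elf4), against 3.01% and 11.4%. With LPS + IL-4 they were 1 of 9 (Ets1) and 2 of 9 (Ets1 and Etv6), against 8.1% and 8.09%.

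Whether the double loss departed from the sum of the single losses was tested as an interaction, on the adjusted p alone. By edgeR 0 members passed in naive, CD40L + IL-4 and LPS + IL-4 cells, where 0.936%, 1.17% and 1.48% of genes did. At an unadjusted p under 0.05 there were 3, 2 and 1, and DESeq2 and voom called 0 in each stage. The interaction for Ets1 in LPS + IL-4 was 0.20 ± 0.18, and that for Etv6 was −0.19 ± 0.12. With the replicate number as a block, which in LPS + IL-4 marked libraries that deviated together, Elf4 passed at 0.26 (edgeR adjusted p = 0.130, and 0.393 without the block). In naive cells Etv6 passed without control replicate 1, at 0.72.

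The effect of a genotype was also compared between stages, in 1 fit of all 24 libraries and on the adjusted p alone. For DKO, by label in LPS + IL-4, 4 of 10 members differed between CD40L + IL-4 and naive, 5 between LPS + IL-4 and naive and 4 between the cultures, against 16.8%, 29.6% and 28.6% of genes. Spi1 itself was lower by unequal amounts in these groups, so the comparisons with naive DKO set a partial loss of PU.1 against the cultures. The log2 fold change of Ets1 in DKO was 1.95 ± 0.21 higher in LPS + IL-4 than in naive cells (edgeR adjusted p = 7.05e-06) and 1.31 ± 0.21 higher than with CD40L + IL-4 (edgeR adjusted p = 0.000869). For Elf4 it was 1.04 ± 0.16 higher with LPS + IL-4 than with CD40L + IL-4 (edgeR adjusted p = 0.000605). For PU.1 cKO the counts were 1 (Elk3), 1 (Ets1) and 0, against 9.05%, 6.34% and 3.09%. For SpiB KO they were 0, 2 (Ets1 and Spic) and 0, against 2.15%, 5.65% and 0%. In these comparisons with 0 members DESeq2 and voom called 0 as well, and 2, 1 and 1 members had an unadjusted p under 0.05.

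The deposited RPKM values, which are per length, can be summed over the members. They added to 505 and 575 in naive control, 414 and 373 with CD40L + IL-4 and 243 and 218 with LPS + IL-4, where Spic has no RPKM and the sum covers 9 members. In the libraries labelled DKO they added to 390 and 523, 400 and 359, and 342 and 322. In LPS + IL-4 both lay above both control values, and in the other stages the pairs overlapped. Ets1 supplied 54.0% and 58.1% of the sum in naive control and 20.9% and 17.2% in LPS + IL-4 control, but 40.0% and 36.8% in the LPS + IL-4 libraries labelled DKO. Spi1 and Spib transcripts, those of the targeted alleles included, were 53.8% and 52.7% of the sum with these genes added in naive control and 24.3% and 20.2% in naive DKO. With CD40L + IL-4 they were 32.2% and 41.1% in control and 6.34% and 5.70% in DKO. With LPS + IL-4 they were 38.6% and 35.2% in control and 13.5% and 13.1% in the libraries labelled DKO, so the control shares of the 2 cultures overlapped. These shares are described and were not tested. The LPS + IL-4 table was normalized apart from the other 2 stages.

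**Figure D3:**
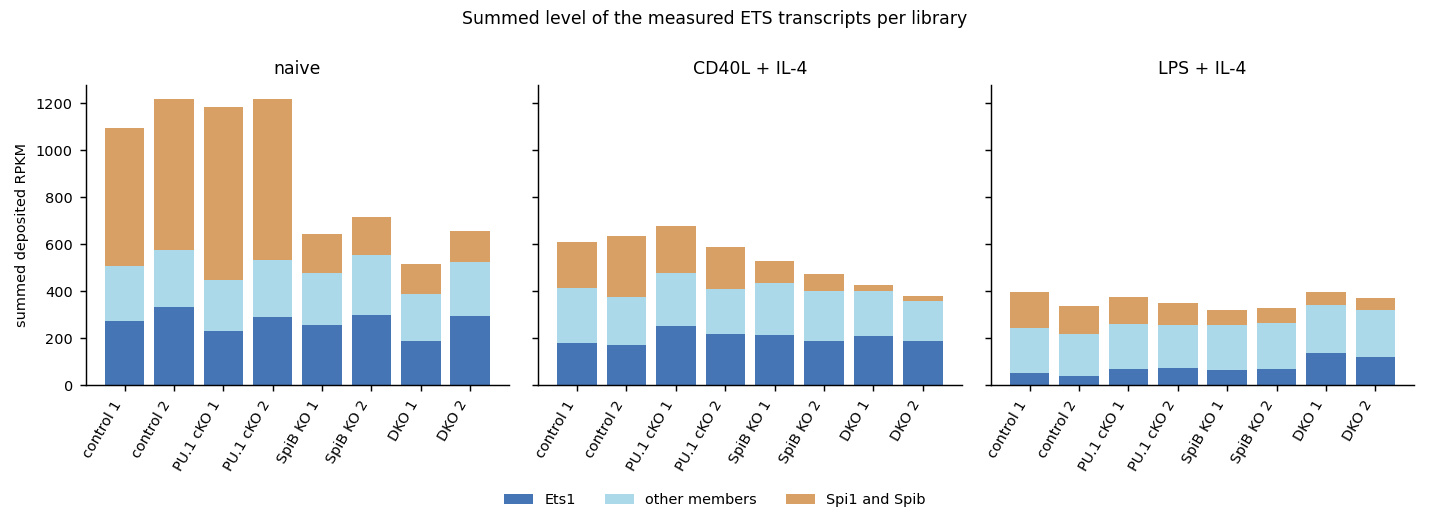
Summed deposited RPKM (vertical axis, from 0) of Ets1, the other members, and Spi1 with Spib in each of the 24 libraries, in 3 panels by stage; bars are single libraries, so there are no error bars. The sum over the 9 members with an RPKM in LPS + IL-4 was 342 and 322 in the LPS + IL-4 libraries labelled DKO and 243 and 218 in control.

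The genes most like the members that were DE in DKO were found by Pearson's r over 24 libraries, on log2 CPM centred on the stage means. The 8 libraries of a stage share their centring, so r is a description. For Ets1 they were Cmah (0.92), Nedd9 (0.90) and Fam102a (0.89), for Elf4 Nek7 (0.92), Xylt1 (0.90) and Rhoq (0.89), and for Etv6 Itgal (0.87), Inf2 (0.84) and Bri3bp (0.83). For Fli1 they were Ctcf (0.93), Cep120 (0.90) and Rtf1 (0.88), and for Ets2 Mavs (0.86), B4galt2 (0.85) and Neu3 (0.81). Among the members themselves, Ets1 and Etv6 had r = −0.64 and Elf1 and Fli1 r = 0.76.

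Of 14 further ETS genes only 6 or 7 were expressed enough to test in a stage, and each one that was DE against control was lower. In naive cells Etv5 fell in PU.1 cKO by 1.16 ± 0.21, and Erf and Etv3 fell in DKO by 0.86 ± 0.17 and 0.72 ± 0.17. With CD40L + IL-4, Erf, a repressor, fell by 0.64 ± 0.22 in PU.1 cKO and 0.70 ± 0.23 in DKO. With LPS + IL-4, Etv5 fell by 1.23 ± 0.26 in PU.1 cKO and 0.95 ± 0.26 in the libraries labelled DKO. By count 1, 0 and 2 of 6 were DE in naive PU.1 cKO, SpiB KO and DKO, 1, 0 and 1 of 6 with CD40L + IL-4 and 1, 0 and 1 of 7 with LPS + IL-4. Over all genes the shares were 8.4%, 6.35% and 14.1%, then 9.36%, 0.11% and 13.7%, then 6.67%, 2.29% and 13.6%. In SpiB KO 3, 1 and 2 had an unadjusted edgeR p under 0.05 in the 3 stages. Their median log2 fold change in DKO was −0.45, −0.57 and −0.10.

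Of 8 genes for partners of ETS factors (Gabpb1, Gabpb2, Irf4, Irf8, Runx1, Cbfb, Pax5 and Srf), the IRF genes, whose products bind DNA with PU.1 or SpiB, rose in several groups. By count 0, 1 and 2 of 8 were DE in naive PU.1 cKO, SpiB KO and DKO, 2, 0 and 2 with CD40L + IL-4 and 1, 0 and 2 with LPS + IL-4, beside 8.4%, 6.35% and 14.1%, then 9.36%, 0.11% and 13.7%, then 6.67%, 2.29% and 13.6% of all genes. Where the count was 0, an unadjusted edgeR p under 0.05 was found for 1 gene in naive PU.1 cKO and for 0 and 2 in SpiB KO of the cultures. Irf8 rose in naive SpiB KO by 0.70 ± 0.10 and in naive DKO by 0.84 ± 0.10. In these groups the marker sums for T cells, macrophages and plasmacytoid dendritic cells were higher, the macrophage sum mostly through Cd68. In LPS + IL-4 it rose by 0.66 ± 0.09 in the libraries labelled DKO. Irf4, which is itself 1 of the plasma cell markers summed above, rose in PU.1 cKO and DKO of both cultures by 0.64 to 0.71. Pax5, which keeps B cell identity and is 1 of the B cell markers summed above, fell with CD40L + IL-4 by 0.92 ± 0.19 in PU.1 cKO and 0.94 ± 0.19 in DKO, and Runx1, which binds beside Ets1 on many sites, fell by 0.73 ± 0.12 in naive DKO. The GABP partners Gabpb1 and Gabpb2 were DE in no comparison with control.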

How the data were processed

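RNA-seq of mouse lymph node B cells covered 24 libraries, 2 biological replicates for each of 4 genotypes in 3 stages. Per the labels and the study's methods, the authors aligned reads to GRCm38/mm10 with Subread and counted uniquely mapped reads per RefSeq gene with featureCounts. The deposited counts are raw read counts per gene. The deposited log2 RPKM values were quantile normalized by the authors, with the LPS + IL-4 libraries in a table of their own. Entries with no symbol (517, with 0.162% of counts) stayed in the library totals and, where they passed the filter, among the genes tested. They were left out only of the search for the genes most like a member. Strand handling in counting is not given in the sources used here. Groups were taken from the labels.

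Genes at 0.5 CPM or more in 2 libraries entered the quasi-likelihood test of edgeR (4.0.16, in R 4.3.3) after TMM scaling, with the 8 libraries of a stage in 1 fit, or all 24 for control stages and for effects between stages. P-values were adjusted by Benjamini-Hochberg over all genes tested. SE is the log2 fold change over the square root of F. A gene was DE at adjusted p under 0.15, fold over 1.5 and mean log2 RPKM over 0. Interactions and effects between stages used the adjusted p alone, and control stages the adjusted p and the fold. An exact permutation test of 2 against 2 libraries cannot go below p = 0.333, so none was run. Fold changes are those returned by the edgeR fit at its default prior count. A prior count of 2 was used only for the log2 CPM behind the correlations. The members, gene lists and rules were chosen with earlier results of these data known. All 10 members were described. Other genes were named where they were DE against control in the lists of ETS and partner genes, or had the 3 highest r with a member DE in PU.1 SpiB DKO.

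On data simulated from these libraries, with 200 genes changed 2-fold, the test recovered 76.3%, 71.0% and 89.0% of changed genes for PU.1 SpiB DKO against control in naive, CD40L + IL-4 and LPS + IL-4 cells (11920, 12300 and 11999 genes), with 25, 17 and 29 false calls. For the difference of the PU.1 SpiB DKO effect between LPS + IL-4 and naive cells it recovered 50.5%, with 19 false calls among 13185 genes. Recovery was scored on the adjusted p alone, without the fold and RPKM rules that define DE. Changed genes were drawn from those above a minimum mean CPM, and libraries were simulated as independent. The rates against control are thus not those of the DE calls. Alternatives were DESeq2 (1.42), limma voom (3.58.1) with quantile normalization, RLE scaling, no filter, no Rn45s, other thresholds, other sets of libraries, the replicate number as a block, and each library left out in turn. Same-numbered libraries deviated together in LPS + IL-4 (correlation of deviations 0.386 to 0.514 over pairs of groups). The correlations were positive but weaker in naive cells (0.0918 to 0.250) and not all positive with CD40L + IL-4 (−0.0702 to 0.266). The block was read as a pairing in LPS + IL-4 alone, where they were highest, a choice made without a set threshold. Counts of replicates correlated at 0.975 to 0.992. Promoter windows are from RefSeq.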

Additional observations from a re-analysis of the deposited data

Results flagged for a closer look

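The effect of a genotype (its log2 fold change against control) differed between stages for 17 pairs of member and comparison by edgeR's adjusted p in the fit of all 24 libraries, and each is given here as the difference of the 2 effects. The stages share no libraries, and stage and sequencing experiment cannot be told apart. In PU.1 SpiB DKO, Spi1 fell by 0.63 in naive cells and by 1.73 with CD40L + IL-4, so the naive effect is that of a partial loss of PU.1. In the LPS + IL-4 libraries labelled PU.1 SpiB DKO, Spi1 was near control (−0.11) and 0.52 above PU.1 cKO. The study nevertheless describes its floxed exon as deleted there. Effects of that group are given by its label.

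Ets1 had 5 of these. In PU.1 SpiB DKO its effect was 1.95 higher with LPS + IL-4 than in naive cells (edgeR adjusted p = 7.05e-06), 1.31 higher with LPS + IL-4 than with CD40L + IL-4 (edgeR adjusted p = 0.000869) and 0.64 higher with CD40L + IL-4 than in naive cells (edgeR adjusted p = 0.0636). The first and second held with any library left out, and the third was lost without CD40L + IL-4 PU.1 SpiB DKO replicate 1 (0.52), naive PU.1 SpiB DKO replicate 1 (0.46) or naive control replicate 2 (0.60). Between LPS + IL-4 and naive cells the PU.1 cKO effect on Ets1 was 0.91 higher (edgeR adjusted p = 0.0247), and 0.69 and not called without LPS + IL-4 control replicate 2. The SpiB KO effect was 0.75 higher (edgeR adjusted p = 0.0785), a call lost without naive SpiB KO replicate 1, naive control replicate 2, LPS + IL-4 control replicate 2 or either LPS + IL-4 SpiB KO library (0.55 to 0.78).

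Etv6 and Elf4 gave 3 each in PU.1 SpiB DKO. For Etv6 the effect differed by −1.18 between LPS + IL-4 and naive cells (edgeR adjusted p = 0.000155), −0.58 against CD40L + IL-4 (edgeR adjusted p = 0.0312) and −0.60 between CD40L + IL-4 and naive cells (edgeR adjusted p = 0.0420, and lost at −0.47 without naive PU.1 SpiB DKO replicate 2). For Elf4 it was 1.04 between LPS + IL-4 and CD40L + IL-4 (edgeR adjusted p = 0.000605), 0.52 between LPS + IL-4 and naive cells (edgeR adjusted p = 0.0277) and −0.51 between CD40L + IL-4 and naive cells (edgeR adjusted p = 0.0467). The last was lost without CD40L + IL-4 control replicate 1 (−0.36) or naive control replicate 2 (−0.45).

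Elf1 in PU.1 SpiB DKO had differences of 0.51 between LPS + IL-4 and naive cells (edgeR adjusted p = 0.0881) and 0.56 between the cultures (edgeR adjusted p = 0.0657). They were lost without 5 and 4 of the 24 libraries in turn: naive control replicate 1, naive PU.1 SpiB DKO replicate 1, LPS + IL-4 control replicate 2 and both LPS + IL-4 PU.1 SpiB DKO libraries for the former (0.40 to 0.51), and CD40L + IL-4 control replicate 1, CD40L + IL-4 PU.1 SpiB DKO replicate 2, LPS + IL-4 control replicate 2 and LPS + IL-4 PU.1 SpiB DKO replicate 1 for the latter (0.34 to 0.55). Fli1 in PU.1 SpiB DKO differed by 0.90 between LPS + IL-4 and naive cells (edgeR adjusted p = 0.0330), lost without naive PU.1 SpiB DKO replicate 1 (0.60) or naive control replicate 2 (0.70). Ets2 in PU.1 SpiB DKO differed by 0.86 between CD40L + IL-4 and naive cells (edgeR adjusted p = 0.0779), lost without CD40L + IL-4 control replicate 2, naive control replicate 2, CD40L + IL-4 PU.1 SpiB DKO replicate 2 or naive PU.1 SpiB DKO replicate 1 (0.72 to 0.82).

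Elk3 in PU.1 cKO differed by −0.73 between CD40L + IL-4 and naive cells (edgeR adjusted p = 0.0723), lost at −0.68 without CD40L + IL-4 control replicate 2 or naive PU.1 cKO replicate 2. Spic in SpiB KO had a fitted difference of 6.19 between LPS + IL-4 and naive cells (edgeR adjusted p = 0.121), which rests on 14 counts against 0 in LPS + IL-4 control, depends on the prior count and was lost without any of 11 of the 24 libraries.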

How the results depend on the processing

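Over the 50 member values called, settings other than leaving out a library gave 425 values, of which 412 kept their call and 13 lost it, 10 of those because the adjusted p was held under 0.05 and 3 under voom (Ets1 and Ets2 in DKO between CD40L + IL-4 and naive cells, and Spic between the control cultures). The settings with no threshold on fold or on RPKM only loosen the rule for calls within a stage. No call could be lost under them, and they are part of the 412. In 1 case the direction was lost: the Spic difference between LPS + IL-4 and CD40L + IL-4 control was 0 (edgeR adjusted p = 1) without CD40L + IL-4 control replicate 2 and −7.25 without its replicate 1. With no threshold on fold, the members DE against control came to 4 (naive), 5 (CD40L + IL-4) and 11 (LPS + IL-4) in place of 2, 3 and 3 over the 3 mutants, and those between mutants to 14 in place of 6. Of all genes, the adjusted p alone passed 17.2%, 12.6% and 34.8% in naive PU.1 cKO, SpiB KO and DKO. The shares were 16.6%, 0.134% and 25.2% with CD40L + IL-4 and 19%, 5.13% and 48% with LPS + IL-4. Between DKO and PU.1 cKO they were 18.1%, 4.23% and 36.3% by stage, and between DKO and SpiB KO 4.2%, 20.4% and 30%. With an adjusted p under 0.05 the naive count was 1, and 10 of 17 effects differed between stages. The interaction, at 0 members in all stages, gave 2 without the filter on low counts, 2 with all 24 libraries in the fit and 4 with the replicate block: Ets2 and Etv6 in naive, Elk3 in CD40L + IL-4 and Elf4 in LPS + IL-4 cells. Without the filter the genes passing also rose, from 117 to 1088 of 17289 in naive cells. They rose from 149 to 647 of 17211 with CD40L + IL-4 and from 184 to 779 of 18097 with LPS + IL-4. With the replicate block the effects that differed between stages numbered 31, while no within-stage call of a member in a pair of genotypes was lost. The block was read as a pairing in LPS + IL-4 alone. Its calls that involve another stage are given as a dependence on this setting, and no result is drawn from them. The share of all genes passing with the block is not given here. With 1 library left out, the counts ran from 0 to 4 (naive), 1 to 3 (CD40L + IL-4) and 2 to 4 (LPS + IL-4), 5 to 7 between mutants, 0 to 1 for the interaction, 12 to 20 for effects between stages and 19 to 20 for control stages (19 with all libraries). With 1 library left in a group, it is assumed to vary like the others. The causes of these shifts were not tested beyond what each setting changes itself. The effect of depth was not tested by thinning. Spic had at most 13 counts in a library, and the next lowest member, Ets2, had as few as 82.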
